A study of Mus musculus with 12 samples.

Results

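Leptomeningeal fibroblasts are the collagen-producing cells of the pia and arachnoid, the thin membranes that cover the brain, and 10 of their genes were followed here among the 54532 genes counted in mouse frontal cortex. The genes were Col1a1, Col1a2, Dcn, Lum, Ogn, Mgp, Bmp6, Igf2, Slc13a4 and Slc6a13, chosen by symbol as known markers of these cells, and each symbol matched 1 annotated gene. All 10 passed the filter on low counts that left 17307 genes for testing.

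Messenger RNA was sequenced from whole frontal cortex of 12 mice at 9 months of age. Female mice were either APP/PS1/Hras-/- or APP/PS1, male mice likewise, and each of these 4 groups had 3 mice. APP/PS1 denotes transgenes for mutant forms of the amyloid precursor protein and presenilin, and Hras-/- denotes knockout of Hras, a small GTPase. Every mouse carried APP/PS1, so the comparison of genotypes asks what loss of Hras changed within this amyloid model, and no group without the transgenes was analysed here. No source used here gives the promoters of the transgenes, the background strain or the Hras allele. Total counts ran from 13984692 to 20174131 per library. Hras stood at 19.4 to 23.4 CPM (counts scaled to the size of the library) in the 6 APP/PS1/Hras-/- libraries, against 73.7 to 102 CPM in the 6 APP/PS1 libraries. Markers of cortical neurons were all present, with 12 of 12 genes detected and a summed level of 5334 to 6296 CPM per library. The 10 fibroblast genes together held 77.9 to 223 CPM, a small part of the RNA of a tissue piece that is mostly cortex.

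The pia lies directly on the cortical surface, and its fibroblasts lay down type I collagen, proteoglycans and other matrix proteins and secrete growth factors. They also carry transporters that move solutes between cerebrospinal fluid and brain. In a whole-tissue sample these transcripts come with whatever membrane stays attached to the dissected cortex, and fewer cells of a type cannot be told apart from less RNA per cell.

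The 10 genes lie on 5 chromosomes of the GRCm38 assembly. Mgp (chr6:136872435-136875823, minus strand), Slc13a4 (chr6:35267957-35308131, minus strand), Slc6a13 (chr6:121300227-121337733, plus strand) and Col1a2 (chr6:4504814-4541544, plus strand) share chromosome 6 but lie far apart on it. Dcn (chr10:97479609-97518143, plus strand) and Lum (chr10:97565128-97572703, plus strand) are neighbours, 47.0 kb apart. Ogn (chr13:49608046-49624501, plus strand), Bmp6 (chr13:38345107-38500302, plus strand) and Col1a1 (chr11:94936224-94953042, plus strand) complete the set with Igf2 (chr7:142650766-142666816, minus strand), which lies 1457 kb from Hras.

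RefSeq promoters on GRCm38.p6 matched 6 of the 10 genes, with 11 start sites, and Mgp, Dcn, Lum and Col1a1 had none. The 250 bases before each start were searched on both strands for CCAAT, the core of a box bound by NF-Y, and for TATAAA, the core of a TATA box. The first motif or its reverse complement ATTGG occurred in 4 of the 11 windows, at starts of 4 genes (Slc13a4, Col1a2, Igf2 and Slc6a13), against 34.6% of 15621 windows of genes tested here and 33.8% of all 32851 windows. The second or its reverse complement TTTATA occurred in 1 of the 11, at Ogn as overlapping copies, against 6.83% of the windows of tested genes. The windows of Slc13a4 (chr6:35308127-35308376, minus strand) and Col1a2 (chr6:4505368-4505617, plus strand) are shown because these are the genes with a single listed start whose window holds the box. The windows of Bmp6 and Ogn held none. Capitals mark CCAAT or ATTGG, and a match is a description, not evidence of binding.
Slc13a4: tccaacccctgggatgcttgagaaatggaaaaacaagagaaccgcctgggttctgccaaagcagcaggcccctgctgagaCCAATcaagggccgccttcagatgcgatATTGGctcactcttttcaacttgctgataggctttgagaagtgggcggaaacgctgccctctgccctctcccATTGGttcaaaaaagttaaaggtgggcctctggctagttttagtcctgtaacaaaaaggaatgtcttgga
Col1a2: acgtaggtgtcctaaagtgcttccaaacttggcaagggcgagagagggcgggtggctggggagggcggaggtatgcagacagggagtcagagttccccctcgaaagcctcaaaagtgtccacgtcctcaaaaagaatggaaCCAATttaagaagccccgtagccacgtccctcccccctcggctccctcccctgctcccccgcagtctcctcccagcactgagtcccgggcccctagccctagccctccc
The Slc13a4 window holds 3 copies and the Col1a2 window 1.

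Genes were ranked in CPM per kilobase of exon, with the length taken as the union of all annotated exons of a gene. The order depends on this length, which can exceed that of the transcripts present. Mgp ranked first of the 10 at 11.4 ± 2.52 (SD, n = 12). Slc13a4 followed at 4.65 ± 2.28, Slc6a13 at 4.14 ± 1.43 and Ogn at 3.89 ± 1.32. Dcn stood at 2.97 ± 1.80 and Bmp6 at 2.89 ± 0.873. On this scale the collagen chains were close to each other, Col1a1 at 1.83 ± 0.560 and Col1a2 at 1.76 ± 0.481. The lengths used were 6563 bases for Col1a1 and 12426 bases for Col1a2. Lum stood at 1.11 ± 0.445 and Igf2 last at 0.273 ± 0.116. Neighbours in this order differed by more than their SDs only between Mgp and Slc13a4 and between Lum and Igf2.

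Levels of a single gene are given from here on in CPM. Col1a1 and Col1a2 encode the chains of type I collagen, the main fibril of the membranes. Col1a1 stood at 9.73, 9.83 and 16.0 CPM in APP/PS1/Hras-/- females, against 10.1, 18.0 and 12.6 CPM in APP/PS1 females. In males it stood at 19.04, 11.1 and 8.84 CPM in APP/PS1/Hras-/- mice, against 11.3, 8.60 and 8.80 CPM in APP/PS1 mice. The groups overlapped in both sexes, and the highest value of all belonged to APP/PS1/Hras-/- male 1. Col1a2 stood at 20.1, 19.3 and 28.2 CPM in APP/PS1/Hras-/- females, against 21.2, 34.4 and 24.9 CPM in APP/PS1 females. In males Col1a2 stood at 25.4, 22.1 and 13.8 CPM in APP/PS1/Hras-/- mice, against 21.1, 18.96 and 12.4 CPM in APP/PS1 mice. Across sexes the log2 difference between APP/PS1/Hras-/- and APP/PS1 was 0.12 (SE 0.23) for Col1a1 and −0.02 (SE 0.20) for Col1a2. Neither passed edgeR's quasi-likelihood test (adjusted p = 0.9999 for both). The 95% intervals, −0.32 to 0.57 for Col1a1 and −0.40 to 0.37 for Col1a2, leave room for a modest change in either direction.

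Dcn, Lum and Ogn encode decorin, lumican and osteoglycin, small leucine-rich proteoglycans that bind collagen fibrils. Dcn was the most variable of the 10 genes. It stood at 9.28, 11.1 and 23.4 CPM in APP/PS1/Hras-/- females, against 26.4, 34.9 and 14.7 CPM in APP/PS1 females. In males Dcn stood at 37.0, 11.1 and 7.65 CPM in APP/PS1/Hras-/- mice, against 15.5, 9.27 and 8.04 CPM in APP/PS1 mice. The male difference of 0.77 (SE 0.64) therefore rested on 1 library: without APP/PS1/Hras-/- male 1 it was −0.21. Lum, next to Dcn on chromosome 10, did not follow it. Lum stood at 2.66, 2.92 and 1.55 CPM in APP/PS1/Hras-/- females, against 2.64, 5.76 and 2.42 CPM in APP/PS1 females. In males it stood at 2.34, 1.88 and 2.86 CPM in APP/PS1/Hras-/- mice, against 2.32, 3.37 and 1.79 CPM in APP/PS1 mice. Only APP/PS1 female 2 stood apart, and the other 11 libraries lay between 1.55 and 3.37 CPM. Ogn gave the clearer separation of female groups. It stood at 10.6, 8.47 and 6.55 CPM in APP/PS1/Hras-/- females, against 10.9, 18.0 and 12.7 CPM in APP/PS1 females, so the groups did not overlap, although the nearest values, 10.6 and 10.9 CPM, almost met. In males Ogn stood at 10.02, 9.73 and 6.60 CPM in APP/PS1/Hras-/- mice, against 12.2, 7.98 and 5.78 CPM in APP/PS1 mice, which overlapped fully.

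Mgp encodes matrix Gla protein, a secreted vitamin K-dependent protein that inhibits calcification and binds bone morphogenetic proteins. It stood at 11.9, 14.2 and 8.10 CPM in APP/PS1/Hras-/- females, against 16.4, 16.1 and 18.2 CPM in APP/PS1 females. In males it stood at 12.2, 11.6 and 11.5 CPM in APP/PS1/Hras-/- mice, against 14.7, 17.0 and 11.0 CPM in APP/PS1 mice. The 3 APP/PS1/Hras-/- males were nearly equal, and 5 of the 6 APP/PS1 libraries lay above every APP/PS1/Hras-/- library, with APP/PS1 male 3 the exception. Mgp was the one gene of the 10 that lay lower in APP/PS1/Hras-/- mice by more than its interval across sexes, at 11.6 ± 1.99 CPM in APP/PS1/Hras-/- mice and 15.6 ± 2.50 CPM in APP/PS1 mice (SD, n = 6 each). The log2 difference was −0.42 (SE 0.13, interval −0.69 to −0.16) with an unadjusted p of 0.00688 in edgeR, the 38th smallest of 17307. It did not pass after adjustment (adjusted p = 0.9999). Leaving out each library in turn gave −0.51 to −0.32.

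**Figure D1:**
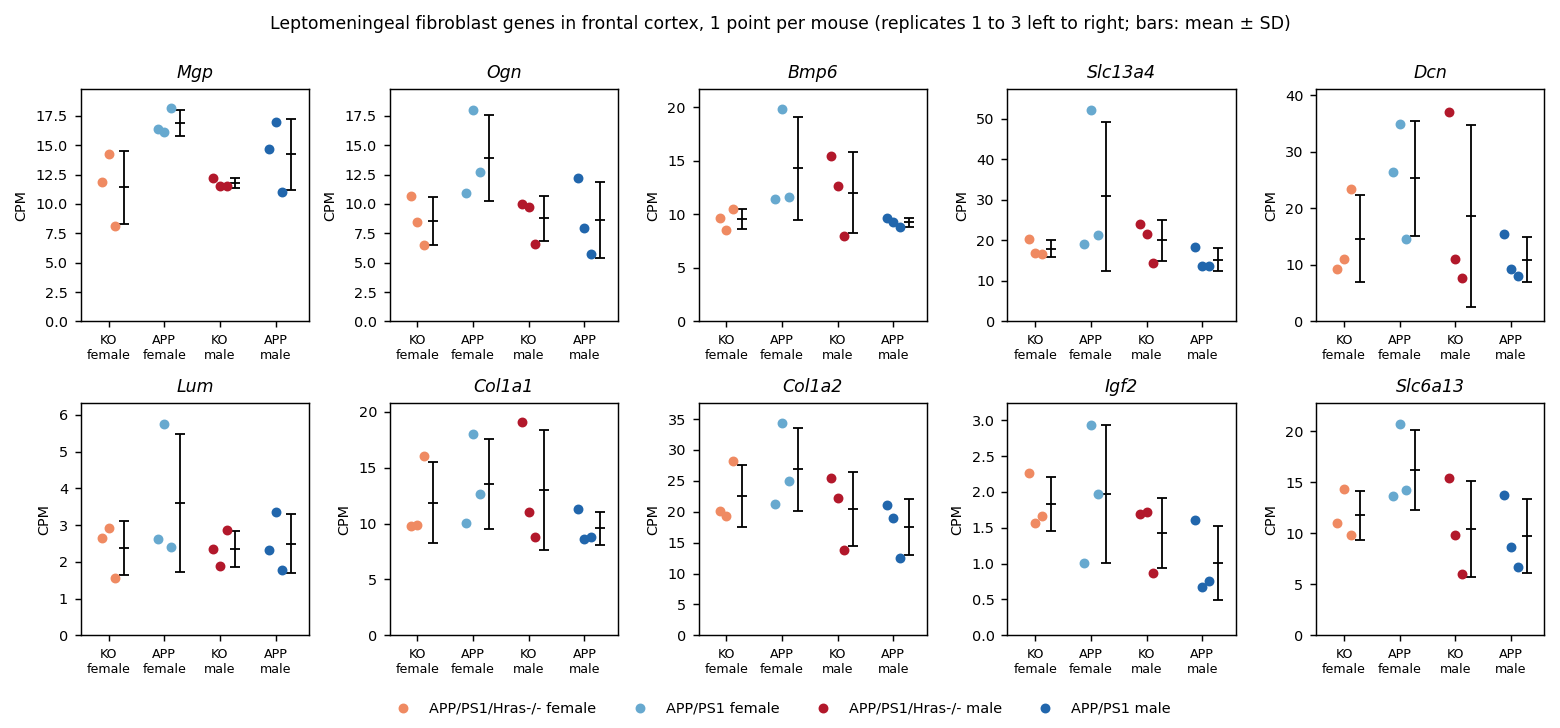
Level of each gene in CPM (linear axis from 0) in every mouse, 1 panel per gene; KO stands for APP/PS1/Hras-/- and APP for APP/PS1, points are single mice, and bars give the mean and SD of 3 mice. The second APP/PS1 female is the highest point in 7 of the 10 panels, while in Mgp the 3 APP/PS1 females lie together between 16.1 and 18.2 CPM.

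The secreted ligands were Bmp6, a bone morphogenetic protein that signals through SMAD proteins, and Igf2, an imprinted growth factor of the insulin family. Bmp6 stood at 9.67, 8.54 and 10.5 CPM in APP/PS1/Hras-/- females, against 11.4, 19.9 and 11.6 CPM in APP/PS1 females. The female groups did not overlap, though APP/PS1 female 2 supplied most of the distance. In males Bmp6 stood at 15.4, 12.7 and 7.96 CPM in APP/PS1/Hras-/- mice, against 9.63, 9.33 and 8.80 CPM in APP/PS1 mice, so that 2 of the 3 knockout males lay above and 1 below all APP/PS1 males. Igf2 was read at 11 to 51 counts per library, and its values are the least precise. It stood at 2.27, 1.57 and 1.66 CPM in APP/PS1/Hras-/- females, against 1.01, 2.94 and 1.97 CPM in APP/PS1 females. In males Igf2 stood at 1.70, 1.72 and 0.871 CPM in APP/PS1/Hras-/- mice, against 1.61, 0.674 and 0.756 CPM in APP/PS1 mice. The groups overlapped in both sexes, and the log2 difference across sexes was 0.18 (SE 0.30).

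The transporters were Slc13a4, a sodium-dependent sulfate transporter, and Slc6a13, a transporter of GABA and taurine. Slc13a4 stood at 20.3, 16.9 and 16.6 CPM in APP/PS1/Hras-/- females, against 19.1, 52.1 and 21.5 CPM in APP/PS1 females. In males it stood at 24.1, 21.6 and 14.4 CPM in APP/PS1/Hras-/- mice, against 18.5, 13.6 and 13.8 CPM in APP/PS1 mice. The 905 counts behind 52.1 CPM in APP/PS1 female 2 place that library far outside the other 11, which lay between 13.6 and 24.1 CPM. Slc6a13 stood at 11.0, 14.4 and 9.82 CPM in APP/PS1/Hras-/- females, against 13.6, 20.7 and 14.2 CPM in APP/PS1 females. In males it stood at 15.4, 9.84 and 6.04 CPM in APP/PS1/Hras-/- mice, against 13.7, 8.65 and 6.74 CPM in APP/PS1 mice, with full overlap.

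Across sexes, 0 of the 10 genes passed the test, where 0.0173% of all tested genes (3 genes) did, and 1 of the 10 (Mgp) had an unadjusted p under 0.05, against 1.68% of all. Of the 10, 8 lay below 0 and 2 above, where 48.9% of all tested genes lay below, and their median log2 difference was −0.14, beside 0.0024 over all tested genes. Without APP/PS1 female 2 the split was 4 below and 6 above, with a median of 0.10. DESeq2 also called 0 of the 10. The p-values measure the spread between these mice only.

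In females all 10 genes lay lower in APP/PS1/Hras-/- mice. The median log2 difference was −0.57, beside 0.0021 over all tested genes, of which 49.5% lay below 0. The differences ran from −0.78 for Dcn (SE 0.63) and −0.78 for Slc13a4 (SE 0.36) through −0.70 for Ogn (SE 0.28), −0.60 for Lum (SE 0.37), −0.58 for Bmp6 (SE 0.24), −0.57 for Mgp (SE 0.19) and −0.46 for Slc6a13 (SE 0.34) to −0.25 for Col1a2 (SE 0.27), −0.19 for Col1a1 (SE 0.31) and −0.10 for Igf2 (SE 0.41). No gene passed the edgeR test (adjusted p of 0.991 or above), where 0.0116% of all tested genes (2 genes) did. At an unadjusted p under 0.05 there were 3 of the 10, Mgp (0.00922), Ogn (0.0295) and Bmp6 (0.0347), against 3.81% of all. The same 3 genes were those in which every APP/PS1/Hras-/- female lay below every APP/PS1 female, as did 5% of all tested genes.

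The female pattern depended on APP/PS1 female 2. Without that library 8 of the 10 genes lay below 0, the median was −0.21, and Col1a1 (0.07) and Igf2 (0.29) lay above 0. Slc13a4 was then at −0.18, Lum at −0.10 and Bmp6 at −0.27. Mgp was least affected. It was the 1 gene of the 10 still at an unadjusted p under 0.05 in edgeR, against 2.01% of all tested genes, and 0 were called.

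In males 8 of the 10 genes lay higher in APP/PS1/Hras-/- mice, with a median of 0.30 beside 0.0063 over all tested genes, of which 51.5% lay above 0. The largest differences were those of Dcn (0.77, SE 0.64), Igf2 (0.50, SE 0.45), Col1a1 (0.44, SE 0.31), Slc13a4 (0.39, SE 0.36) and Bmp6 (0.38, SE 0.24). Col1a2 (0.22, SE 0.27), Slc6a13 (0.10, SE 0.35) and Ogn (0.02, SE 0.29) lay nearer 0, and Lum (−0.09, SE 0.37) and Mgp (−0.28, SE 0.19) lay below it. Each of the 10 intervals included 0. None passed the edgeR test (adjusted p of 0.945 or above), where 0.0116% of all tested genes (2 genes) did, and 0 of the 10 had an unadjusted p under 0.05, against 3.91% of all. Without APP/PS1/Hras-/- male 1 the split was 5 below and 5 above, with a median of −0.02.

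The RNA integrity number given in the labels was higher in every APP/PS1/Hras-/- male (8.6 to 8.7) than in any APP/PS1 male (7.8 to 8.3). With this number as a covariate the male median was 1.09, with 5 of the 10 at an unadjusted p under 0.05 against 7.74% of all tested genes, and still 0 called. RNA integrity and genotype cannot be told apart in males. In females the number was 8.3 to 8.5 in APP/PS1/Hras-/- mice and 8.5 to 8.6 in APP/PS1 mice. No APP/PS1/Hras-/- female exceeded an APP/PS1 female, so the 2 largely run together there too. With the covariate the female median was −0.62. At an unadjusted p under 0.05 in edgeR there were 5 of the 10, against 5.62% of all tested genes, and 0 were called.

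**Figure D2:**
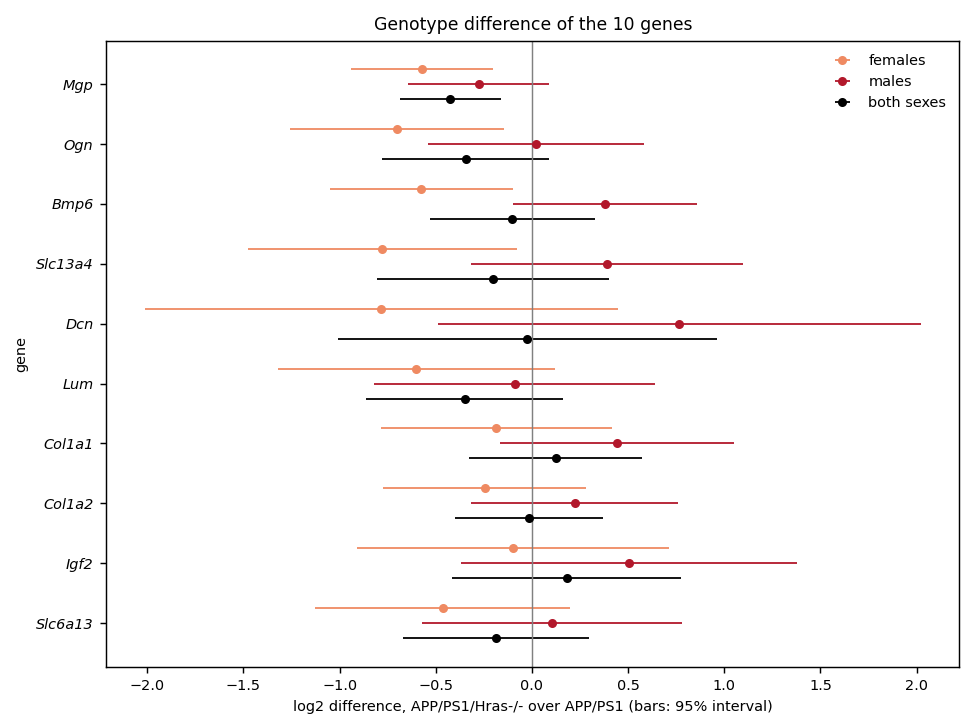
Log2 difference of APP/PS1/Hras-/- over APP/PS1 (horizontal axis) for each gene, with 95% intervals, in females, in males and across both sexes. All 10 female points lie below 0, 8 of the 10 male points lie above 0, and Mgp lies below 0 in all 3 sets, at −0.57, −0.28 and −0.42.

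**Figure D3:**
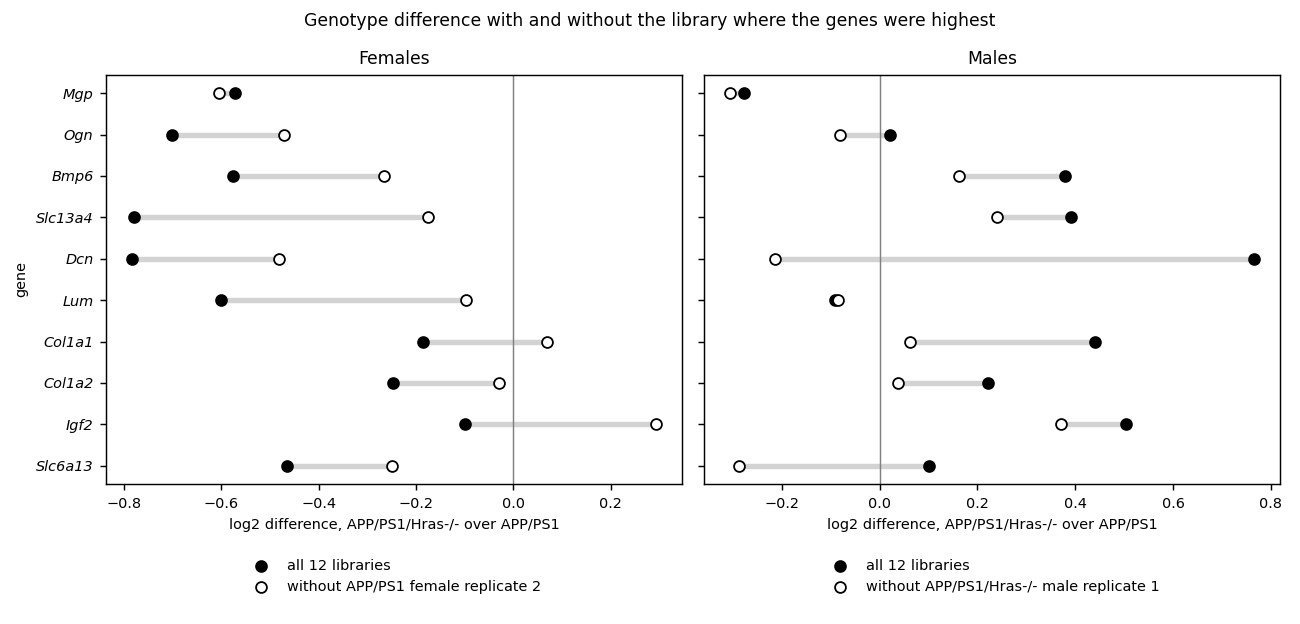
The same log2 difference (horizontal axis) with all libraries (filled points) and with 1 library left out (open points), APP/PS1 female 2 in females and APP/PS1/Hras-/- male 1 in males. Dcn in males lies at −0.21 without the library and 0.77 with it, Slc13a4 in females at −0.18 without and −0.78 with it, and Mgp hardly moves in either sex.

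The difference between the sexes was itself tested as an interaction, the female minus the male genotype difference. All 10 genes lay below 0, as did 51% of all tested genes, with a median of −0.61 beside −0.0068 over all. Bmp6 was at −0.95 (SE 0.34, unadjusted p = 0.0164) and Slc13a4 at −1.17 (SE 0.51, unadjusted p = 0.0436). Dcn, at −1.55 (SE 0.90), had the largest estimate and the largest error, and Mgp, at −0.29 (SE 0.27), the smallest. None passed the edgeR test (adjusted p of 0.667 to 0.799), and 0% of all tested genes passed it, with 1248 genes (7.21%) at an unadjusted p under 0.05. DESeq2 called none of the 10. A positive male and a negative female estimate together were found for 8 of the 10 genes, against 31.8% of all tested genes. Without both APP/PS1/Hras-/- male 1 and APP/PS1 female 2 the interaction median was −0.17, with 8 genes below 0 and 2 above. With the RNA integrity number as a covariate it was −1.81, with 7 of the 10 at an unadjusted p under 0.05 against 9.21% of all tested genes, and 0 called. No sex-specific effect is thus called for any of the 10.

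Females had higher estimates than males for all 10 genes when sex was compared across genotypes, with a median log2 difference of 0.35 beside 0.0017 over all tested genes, of which 50.6% were higher in females. The largest were Igf2, at 1.90 ± 0.659 CPM in females and 1.22 ± 0.503 CPM in males (SD, n = 6 each; log2 0.65, SE 0.30), and Slc6a13, at 14.0 ± 3.79 CPM in females and 10.1 ± 3.78 CPM in males (log2 0.45, SE 0.25). Slc13a4 (0.43, SE 0.31), Dcn (0.43, SE 0.50) and Col1a2 (0.38, SE 0.20) were next, and Mgp (0.10, SE 0.13) was smallest. No gene passed the edgeR test (adjusted p of 0.989 or above), where 0.0693% of all tested genes (12 genes) did, and none had an unadjusted p under 0.05, against 4.65% of all. Without APP/PS1 female 2 the median was 0.14 and Bmp6 lay at −0.04. Without APP/PS1/Hras-/- male 1 the median was 0.44, with 5 of the 10 at an unadjusted p under 0.05 against 10.7% of all tested genes, and 0 called.

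The spread between mice was wide for genes of this abundance. The coefficient of variation over the 12 mice ran from 22.0% for Mgp to 60.5% for Dcn, with 49.1% for Slc13a4. Genes within 0.5 of the same mean log2 CPM had median coefficients of 10.5% to 28.8%, and 85.1% to 99.4% of them varied less than the fibroblast gene they were set beside. The same libraries were high or low in gene after gene. APP/PS1 female 2 was the highest of 12 in 7 of the 10 genes, as it was in 11.7% of all tested genes, and among the top 3 in 9. APP/PS1/Hras-/- male 1 was highest for Dcn and Col1a1. APP/PS1 male 3 was among the lowest 3 for all 10 genes and APP/PS1/Hras-/- male 3 for 9. Averaged over the 10 genes, the level relative to the mean of all libraries was 0.90 (log2) in APP/PS1 female 2, 0.36 in APP/PS1/Hras-/- male 1, −0.50 in APP/PS1/Hras-/- male 3 and −0.59 in APP/PS1 male 3. Trh, a gene outside the set, stood at 17.7 CPM in APP/PS1 female 2 and 15.6 CPM in APP/PS1/Hras-/- male 1. It stood at 10.9 CPM in APP/PS1 female 1 and at 2.08 CPM or less in every other library. Whether tissue content differed between these libraries was not tested.

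**Figure D4:**
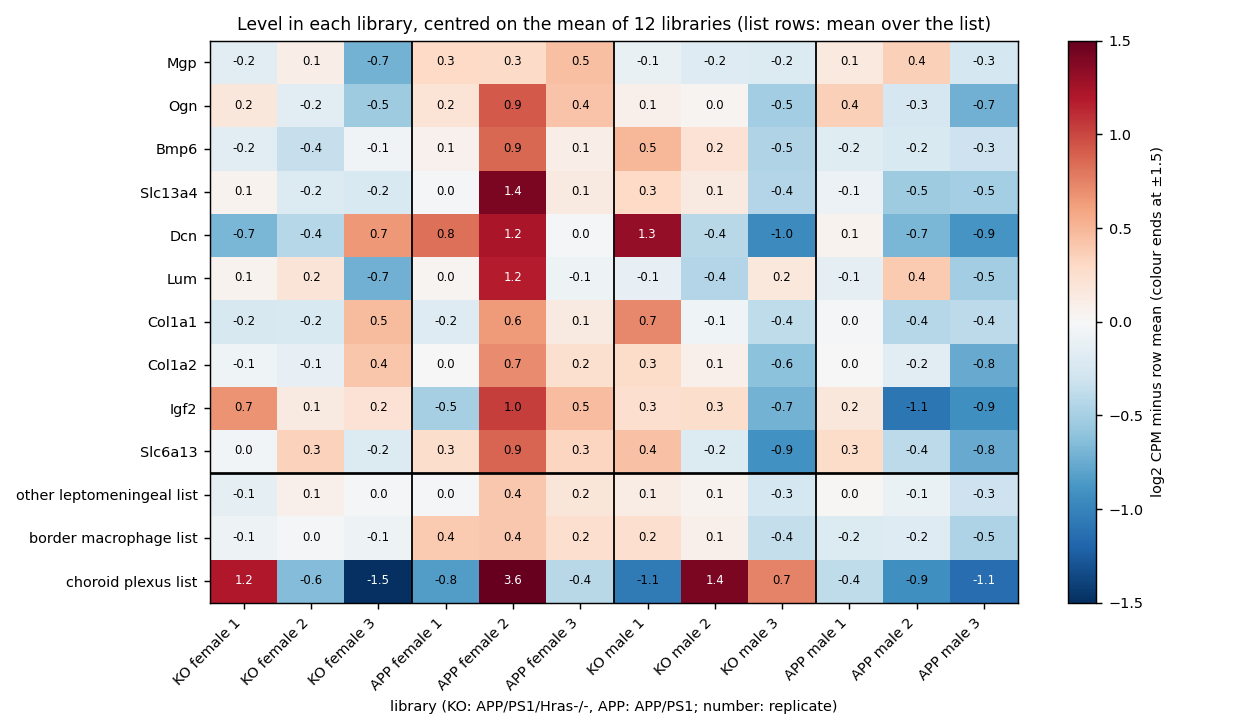
Log2 CPM of each gene in each library minus its mean over the 12 libraries, with the average over 3 marker lists below the line; columns are libraries, KO stands for APP/PS1/Hras-/- and APP for APP/PS1. APP/PS1 female 2 is raised in all 10 genes and in the choroid plexus list (3.6). APP/PS1/Hras-/- male 2 has a raised choroid plexus list (1.4), while its 10 genes average −0.06. For Bmp6 and Slc13a4 that library is among the top 3.

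The choroid plexus, a secretory tissue of the ventricles with its own fibroblast stroma, was present unevenly. Ttr, its most abundant epithelial transcript, stood at 2837 CPM in APP/PS1 female 2. It also stood at 551 CPM in APP/PS1/Hras-/- female 1, at 485 CPM in APP/PS1/Hras-/- male 2 and at 317 CPM in APP/PS1/Hras-/- male 3, where the fibroblast genes averaged −0.05, −0.06 and −0.50. In the library of APP/PS1/Hras-/- male 1, with fibroblast genes at 0.36, Ttr stood at 9.90 CPM. All 22 listed choroid plexus genes were detected in every group. Their summed level was 217 to 1137 CPM in APP/PS1/Hras-/- females, against 301 to 5085 CPM in APP/PS1 females, and 223 to 1083 CPM in APP/PS1/Hras-/- males, against 317 to 425 CPM in APP/PS1 males. In females 21 of 21 tested choroid plexus genes lay below 0 (median −2.08), and without APP/PS1 female 2 19 of the 21 lay above it (median 0.94), while of the fibroblast genes 10 of 10 lay below 0 with that library (median −0.57) and 8 of 10 without it (median −0.21). The part of choroid plexus tissue in the fibroblast values was not tested.

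Other genes of these membranes gave smaller differences of the same kind. Of 65 further leptomeningeal and fibroblast genes, 59 were tested and 0 were called in any comparison. In females 47 lay below 0 (median −0.21), and in males 45 lay above it (median 0.09). Without APP/PS1 female 2, 39 of the 60 then tested lay below 0 in females (median −0.10). The genes with the smallest p were Eya2 (−0.67, SE 0.26) and Ngfr (−0.72, SE 0.31) in females, Lamc3 (0.59, SE 0.16), a laminin chain, and Cp (0.41, SE 0.14), ceruloplasmin, in males, and Emp1 (0.80, SE 0.25) and Eya2 (−0.40, SE 0.19) across sexes, where 38 of the 59 lay below 0 (median −0.06). Their summed level ranged from 1622 to 2440 CPM over the libraries.

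Border-associated macrophages, which live among the fibroblasts of the membranes, were also followed. All 12 of their listed genes were detected in each group, and 0 were called. In females 11 of 12 lay below 0 (median −0.30), and the same count held without APP/PS1 female 2 (median −0.28). In males 10 of 12 lay above 0 (median 0.31). The smallest p in females were those of Cbr2, at −0.97 (SE 0.34), and Lyve1, at −0.84 (SE 0.44). In males they were those of Ms4a7, at −1.30 (SE 0.46), below 0 unlike most of the list, and Cbr2, at 0.83 (SE 0.35). Their summed level was 39.5 to 49.9 CPM in APP/PS1/Hras-/- females, against 49.7 to 52.8 CPM in APP/PS1 females, and 32.9 to 50.8 CPM in APP/PS1/Hras-/- males, against 34.1 to 38.3 CPM in APP/PS1 males. Arachnoid barrier genes lay below 0 in 7 of 12 cases in females (median −0.19) and above 0 in 10 of 12 in males (median 0.18). Endothelial genes were nearer balance in females, 9 of 15 below 0 (median −0.01), and 13 of 15 lay above 0 in males (median 0.14). Cortical neuron genes lay above 0 in 10 of 12 cases in females (median 0.26) and below 0 in 10 of 12 in males (median −0.13), the reverse of the fibroblast genes. Relative to the mean of all libraries, they averaged −0.43 (log2) in APP/PS1 female 2 and −0.21 in APP/PS1/Hras-/- male 1. The other libraries lay between −0.06 and 0.17, so these 2 libraries lay lowest. How far the directions depend on them is not reported here.

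Several lists of other cell types lay on the same side of 0 as the fibroblast genes, with 0 genes called in any of them. Genes of the ependyma and its motile cilia, the lining of the ventricles, lay below 0 in 13 of 14 cases in females (median −0.62) and above 0 in 13 of 14 in males (median 0.72). Without APP/PS1 female 2 the female count was 12 of 14 (median −0.48). Their interaction had a median of −1.49, with 9 of the 14 at an unadjusted p under 0.05, against 7.21% of all tested genes. Their summed level was 52.3 to 61.1 CPM in APP/PS1/Hras-/- females, against 65.6 to 82.8 CPM in APP/PS1 females, and 57.7 to 74.4 CPM in APP/PS1/Hras-/- males, against 49.0 to 60.1 CPM in APP/PS1 males. Astrocyte genes lay below 0 in 10 of 10 cases in females (median −0.16) and above 0 in 7 of 10 in males (median 0.10). Microglial genes lay below 0 in 8 of 8 cases in females (median −0.19) and above 0 in 6 of 8 in males (median 0.13), and for sex all 8 were higher in females (median 0.36). Oligodendrocyte precursor genes lay below 0 in 5 of 6 cases in females (median −0.23) and above 0 in 5 of 6 in males (median 0.15). Blood genes lay below 0 in 4 of 4 cases in females (median −0.91) and above 0 in 3 of 4 in males (median 0.51). Pericyte and smooth muscle genes were balanced in females, 7 of 14 below 0 (median −0.03), with 10 of 14 above 0 in males (median 0.14). Oligodendrocyte genes lay above 0 in 8 of 8 cases in females (median 0.16) and in 7 of 8 in males (median 0.06). Genes of striatal projection neurons lay below 0 in 11 of 12 cases in females (median −0.31) and in 8 of 12 in males (median −0.21). The part of these cell types in the fibroblast result was not tested.

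The molecular partners of the 10 genes were read from lists by role, and none of their members was called in any comparison. Of 13 tested small leucine-rich proteoglycans, which include Dcn, Lum and Ogn, 13 lay below 0 in females (median −0.35), with Optc (−1.61, SE 0.62) and Ogn at the smallest p, and 11 without APP/PS1 female 2 (median −0.16). In males 9 of the 13 lay above 0 (median 0.14), with Ecm2 (0.48, SE 0.18) and Tsku (0.42, SE 0.22) at the smallest p. Of 33 genes that process and crosslink collagen, 24 lay below 0 in females (median −0.08), Loxl3 (−0.35, SE 0.16) and Sparc (−0.23, SE 0.12) at the smallest p, and 23 above it in males (median 0.09), where Tll1, a procollagen C-proteinase, was at 0.70 (SE 0.29) and Lox, the lysyl oxidase, at 0.95 (SE 0.43). Of 50 genes of the bone morphogenetic protein and TGF-beta pathway, to which Bmp6 belongs, 28 lay below 0 across sexes (median −0.01). Acvr2b, an activin receptor, was at 0.35 (SE 0.12) and the ligand Bmp5 at −0.43 (SE 0.19). In females 30 of the 50 lay below 0 (median −0.07), and in males 29 lay above it (median 0.04). Of 20 genes of the insulin-like growth factor axis, 12 lay above 0 across sexes (median 0.04), with Stc2 at 0.54 (SE 0.35) and the receptor Igf1r at 0.09 (SE 0.07). In females 10 of the 20 lay below 0 (median −0.0062), and in males 14 lay above it (median 0.11). Of 9 genes of the vitamin K cycle, Gla proteins and mineralization, 8 lay below 0 across sexes (median −0.13). Among them were Gas6 (−0.13, SE 0.06) and the alkaline phosphatase gene Alpl (−0.18, SE 0.12). In females 7 of the 9 lay below 0 (median −0.22), and in males 6 did (median −0.04). Of 12 related solute carriers, 7 lay below 0 across sexes (median −0.0018), and Slc6a12, a betaine and GABA transporter, was at −0.62 (SE 0.25) and the anion transporter Slc26a11 at 0.16 (SE 0.098). In females 8 of the 12 lay below 0 (median −0.08), and in males 9 lay above it (median 0.09).

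The 10 transcripts varied together from mouse to mouse. Over the 45 pairs, Pearson's r on log2 CPM was positive in 44, with a median of 0.68, and 27 pairs passed a two-sided permutation test with 100000 resamples and Benjamini-Hochberg adjustment over the 45 (21 pairs for Spearman's rho). Bmp6 and Slc13a4 gave the highest r, 0.91 (permutation p = 4.0e-05), with rho of 0.87 (permutation p = 0.00049). Dcn and Col1a1 followed at r = 0.87 (permutation p = 0.00045) and rho = 0.90 (permutation p = 0.00018). Col1a1 and Col1a2, whose products assemble into one molecule, gave r = 0.84 (permutation p = 0.00041) and rho = 0.93 (permutation p = 3.0e-05). Slc13a4 and Col1a2, whose promoters are printed above, gave r = 0.77 (permutation p = 0.00207) and rho = 0.76 (permutation p = 0.00685). Slc13a4 also had r = 0.84 with Ogn. A link between promoter motifs and r was not tested. The resamples shuffled all 12 libraries without regard to group, so differences between groups also enter these values. With group means removed, the mean r of a gene with the other members ran from 0.09 for Mgp to 0.63 for Slc6a13. The values with group means kept also rest in part on the libraries at the extremes. Without the 2 libraries farthest from the median of the first gene, the median r was 0.50, 41 pairs were positive and 0 passed the adjusted test, while Col1a1 and Col1a2 kept r = 0.83, Bmp6 and Slc13a4 0.76, Slc13a4 and Col1a2 0.75, and Dcn and Col1a1 0.71.

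Mgp and Lum stood apart from the other 8. The median r of Mgp with the others was 0.22, and its r with Col1a1 was −0.12, whereas it reached 0.64 with Ogn and with Lum. The median r of Lum was 0.41. Dcn and Lum, adjacent on the chromosome, gave r = 0.22 (permutation p = 0.515) and rho = −0.11 (permutation p = 0.735). The other 8 genes had medians of 0.68 to 0.77.

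**Figure D5:**
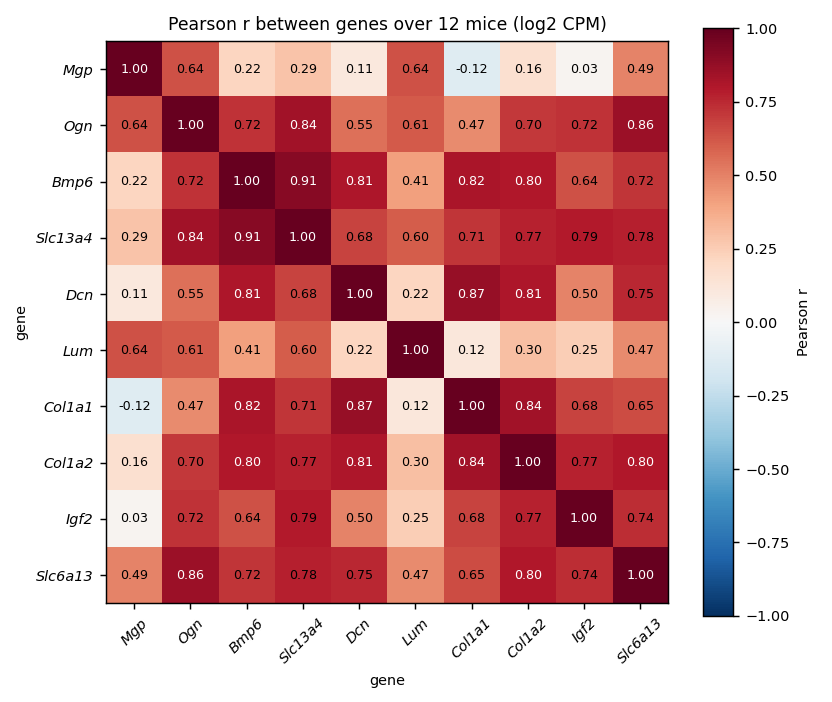
Pearson's r of log2 CPM between each pair of genes over 12 mice, from −1 (blue) to 1 (red). The first row and column, Mgp, are pale, with values of −0.12 to 0.64, and the block from Bmp6 and Slc13a4 to Col1a1, Col1a2 and Slc6a13 is dark apart from Lum.

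Among tested genes outside the set, likeness was measured as the mean r with the 10 genes over 12 libraries after group means were removed. The 5 highest were 3110039I08Rik (0.70), the vascular and epithelial basement membrane collagen Col18a1 (0.69), Rpn2 (0.69), the tight junction gene Cldn5 (0.69) and the endocytic adaptor Dab2 (0.68). The median of this measure was 0.40 over the 59 further leptomeningeal genes, 0.38 over 6 oligodendrocyte precursor genes, 0.30 over choroid plexus genes and 0.29 over border-associated macrophage genes. It was −0.46 over cortical neuron genes, −0.36 over oligodendrocyte genes and 0.03 over all 17297 tested genes outside the set. The nearest gene to each single member, a measure added after values were seen, was Col3a1 (r = 0.96) for Col1a2, Pea15a (0.95) for Col1a1, Col23a1 (0.98) for Dcn, Mfsd7a (0.97) for Lum, Mgat4a (0.96) for Ogn and Gm47956 (0.96) for Mgp. It was Lepr (0.96) for Bmp6, Gm3636 (0.94) for Igf2, Prelp (0.96) for Slc13a4 and Prss53 (0.99) for Slc6a13. These are descriptions over 12 libraries that share tissue content and dissection.

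Chromosome position was also read, since Mgp lies on chromosome 6. Across sexes, 56 of 867 tested genes of chromosome 6 (6.46%) had an unadjusted p under 0.05, against 1.68% of all tested genes, and 0 were called. In females the share was 8.65%, against 3.81% of all. Beside Mgp at −0.42 (SE 0.13), the other members on chromosome 6 were at −0.20 (Slc13a4, SE 0.31), −0.19 (Slc6a13, SE 0.25) and −0.02 (Col1a2, SE 0.20) across sexes, and whether they differ from Mgp was not tested. Igf2 is the member nearest to the targeted gene. Within 500 kb of it 13 of 53 annotated genes were tested, 0 were called and 0 had an unadjusted p under 0.05. Their log2 differences ran from −0.33 to 0.35.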

How the data were processed

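The 12 mice, 3 for each genotype and sex, gave 1 poly(A) RNA library of frontal cortex each. The authors deposited raw counts per gene and library. Per the labels, libraries were made with a stranded Illumina kit. HISAT2 2.1.0, featureCounts, FastQC 0.11.7 and Trimmomatic 0.33 appear in the submitters' processing notes, with the builds mm10 and mm9 and no roles. No source used here gives the strand setting, and reads of overlapping genes cannot be separated.

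Gene IDs were matched to GENCODE M21 on GRCm38, and 37 of 54532 did not match (0.0099% of counts). Counts were scaled with TMM and filtered with filterByExpr over the 4 groups. Genes were tested by robust quasi-likelihood F tests (edgeR 4.0.16, R 4.3.3) on all 12 libraries, with Benjamini-Hochberg adjustment over 17307 genes and a threshold of 0.05. Effects across sexes and of sex came from an additive model, and effects in each sex and the interaction from a model of 4 group means. The standard error is the log2 difference over the root of F, and 95% intervals are 1.96 standard errors wide on each side, so they can differ from the test. Log2 CPM for correlations used a prior count of 2. Replicates were numbered in accession order, which pairs no mice. Sequences are from RefSeq.

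Alternatives were RLE and upper quartile scaling, all genes unfiltered, a minimum of 1 CPM in 3 libraries, DESeq2 1.42.0, limma-voom (limma 3.58.1), RNA integrity as a covariate, omission of APP/PS1/Hras-/- male 1 with APP/PS1 female 2, and omission of each library in turn. List counts without single libraries and nearest genes of single members were added after seeing the data. The code was tested on simulated data. The members, lists and comparisons were chosen with earlier results of these data known. Named genes were all 10 members, the 2 genes with the smallest p of a list without calls where the list is described, and the 5 genes most like the members. Hras, Ttr and Trh were also named.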

Additional observations from a re-analysis of the deposited data

Results flagged for a closer look

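Among the 6 APP/PS1 libraries, the level of Slc13a4 in APP/PS1 female 2 (52.1 CPM) stood far from the next highest (21.5 CPM), a gap of 0.796 of the whole range, where 0.625 is the 95% critical value of Dixon's test for 6 samples. Bmp6 in the same library (19.9 CPM, next highest 11.6 CPM) gave 0.743. The test was applied to 20 sets, each gene in each genotype, and chance marks about 1 in 20 of them.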

How the results depend on the processing

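No member passed under any of the alternatives, and the interaction was negative for all 10 genes in all fits but one. Scaling and the filter on low counts changed no direction. With APP/PS1/Hras-/- male 1 left out together with APP/PS1 female 2 the direction turned across sexes for Slc13a4 (0.03) and Col1a2 (0.0033), in males for Ogn (−0.08), Dcn (−0.21) and Slc6a13 (−0.29), in females for Col1a1 (0.069) and Igf2 (0.29), in the interaction for Col1a1 (0.0070) and Slc6a13 (0.036), and for sex for Lum (−0.0053). With limma-voom Igf2 in females was at 0.028.

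With 1 library or both of these left out, the across-sex values ran from −0.25 to 0.087 for Bmp6, −0.33 to 0.13 for Slc13a4, −0.54 to 0.19 for Dcn, −0.079 to 0.27 for Col1a1 and −0.12 to 0.11 for Col1a2. The male values ran from −0.19 to 0.35 for Ogn, −0.21 to 1.13 for Dcn, −0.27 to 0.19 for Lum and −0.29 to 0.43 for Slc6a13. The female values ran from −0.47 to 0.069 for Col1a1 and −0.42 to 0.29 for Igf2. The interaction ran from −0.91 to 0.0070 for Col1a1 and −0.90 to 0.036 for Slc6a13, and the sex effect from −0.038 to 0.29 for Bmp6 and −0.0053 to 0.39 for Lum.

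Over all genes, 5 were called across sexes and 4 in females without a filter, and DESeq2 called 7 across sexes, 5 in females, 4 in males and 27 for sex. The count for sex ran from 9 to 20 with 1 library left out, 20 without APP/PS1/Hras-/- male 2. The pairs that passed fell to 0 without the 2 libraries farthest from the median of the first gene, where fewer libraries also raise p. These 2 libraries differed from gene to gene. The causes were not tested further. Lum and Igf2, at 11 to 100 counts per library, are limited by depth. No paired analysis was possible because the replicate numbers only follow accession order and the labels tie no mice together.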
